A study of Homo sapiens with 15 samples.

Results

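The regions described here are the accessible chromatin regions of the zinc finger genes on human chromosome 19. Peaks of 15 ATAC-seq libraries were merged wherever they overlapped by at least 1 bp, which gave 222814 regions, 5912 of them on chromosome 19. A region was taken if its midpoint lay inside, or within 1 kb of an end of, a protein-coding gene of that chromosome whose symbol is ZNF followed by a digit. This gave 434 regions, 217 at gene ends and 217 in gene bodies. They belonged to 228 of 250 such genes. The other 22 genes had no region in any library, and 26 regions touched more than 1 of these genes. All positions are on hg38 (GRCh38).

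ATAC-seq marks open chromatin by the places where a transposase can insert adapters. HPAF-II cells, an established line from a human pancreatic adenocarcinoma, were given either 1 µM Lgk974, an inhibitor of the porcupine enzyme without which Wnt proteins are not secreted, or its solvent DMSO. The treatment lasted 24 h or 48 h. There were 4 libraries with DMSO and 4 with Lgk974 at 24 h, and 4 with DMSO and 3 with Lgk974 at 48 h. No genetic change separates the groups, and all libraries come from this 1 line, although KATO III cells also appear in the submitters' growth text. Whether replicates were grown apart is not said in the labels, and the spread that enters a p-value is that between these libraries alone. The study's title links Wnt inhibition to interferon-stimulated genes through loss of repression at endogenous retroviruses, which is the question that the zinc finger genes bear on.

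Most genes in these clusters encode proteins with tandem C2H2 zinc fingers that read DNA, and many carry a KRAB domain. The KRAB domain recruits the corepressor TRIM28, which brings the histone methyltransferase SETDB1 and places the heterochromatin mark H3K9me3 on retroviruses and other transposable elements. The family grew by tandem duplication, which is why its members sit side by side. In carcinomas, promoters of several of these genes are known to be silenced by DNA methylation. ZNF91 and ZNF93 are known for repressing SVA and LINE-1 elements, and ZNF274 for binding the 3′ ends of other zinc finger genes.

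Most starts of these genes were either open in every library or closed in nearly every one, and CpG-rich sequence was found at both kinds. The stretches below, from RefSeq on GRCh38.p14, are the 250 bases before the start of 6 genes, 5′ to 3′ on the strand of the gene, with CpG dinucleotides in capitals. They were chosen to set open starts of CpG-poor (ZNF85, ZNF93, ZNF91) and CpG-rich (ZNF808) sequence beside closed starts that are CpG-rich (ZNF582, ZNF132). Their places are chr19:20923001-20923250 (plus strand) for ZNF85, chr19:19900696-19900945 (plus) for ZNF93, chr19:23395472-23395721 (minus) for ZNF91, chr19:52527418-52527667 (plus) for ZNF808, chr19:56393535-56393784 (minus) for ZNF582 and chr19:58440154-58440403 (minus) for ZNF132.
ZNF85: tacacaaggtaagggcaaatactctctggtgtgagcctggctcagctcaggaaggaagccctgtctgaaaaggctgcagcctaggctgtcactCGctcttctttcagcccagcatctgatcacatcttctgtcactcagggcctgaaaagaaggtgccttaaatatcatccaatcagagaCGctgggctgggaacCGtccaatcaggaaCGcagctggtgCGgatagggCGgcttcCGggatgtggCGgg
ZNF93: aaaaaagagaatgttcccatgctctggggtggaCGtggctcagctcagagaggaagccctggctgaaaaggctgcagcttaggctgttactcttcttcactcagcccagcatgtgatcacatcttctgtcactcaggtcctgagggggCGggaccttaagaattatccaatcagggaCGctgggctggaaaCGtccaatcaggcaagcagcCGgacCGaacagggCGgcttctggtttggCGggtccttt
ZNF91: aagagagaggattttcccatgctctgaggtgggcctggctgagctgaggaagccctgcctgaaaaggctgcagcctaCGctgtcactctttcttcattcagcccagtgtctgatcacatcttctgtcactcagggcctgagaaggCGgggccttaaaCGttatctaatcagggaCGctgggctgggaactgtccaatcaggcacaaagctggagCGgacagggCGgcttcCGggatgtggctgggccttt
ZNF808: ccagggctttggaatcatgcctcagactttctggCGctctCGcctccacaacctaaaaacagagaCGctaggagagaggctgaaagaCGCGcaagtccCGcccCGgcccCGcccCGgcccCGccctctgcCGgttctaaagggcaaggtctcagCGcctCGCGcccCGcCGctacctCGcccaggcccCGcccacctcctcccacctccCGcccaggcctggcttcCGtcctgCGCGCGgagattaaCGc
ZNF582: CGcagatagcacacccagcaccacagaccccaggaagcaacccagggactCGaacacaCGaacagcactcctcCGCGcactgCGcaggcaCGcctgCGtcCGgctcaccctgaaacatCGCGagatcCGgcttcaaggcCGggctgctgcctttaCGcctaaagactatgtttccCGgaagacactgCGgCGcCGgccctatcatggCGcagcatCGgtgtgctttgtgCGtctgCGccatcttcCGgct
ZNF132: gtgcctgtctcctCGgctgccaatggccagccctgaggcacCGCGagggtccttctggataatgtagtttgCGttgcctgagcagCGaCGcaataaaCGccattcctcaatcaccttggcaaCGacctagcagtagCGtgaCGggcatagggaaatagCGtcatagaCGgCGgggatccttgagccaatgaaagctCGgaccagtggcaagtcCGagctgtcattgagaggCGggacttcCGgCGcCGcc

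A peak lay within 1 kb of the start of ZNF85, ZNF93, ZNF91 and ZNF808 in 15 of 15 libraries. At ZNF582 a peak was called in 1 library, a DMSO library at 24 h, and at ZNF132 in 0 of 15. The upstream stretches of ZNF85, ZNF93 and ZNF91 hold 8, 8 and 7 CpGs, with an observed over expected ratio of 0.421, 0.423 and 0.351. Those of ZNF808, ZNF582 and ZNF132 hold 24, 23 and 19 CpGs, with ratios of 0.882, 0.962 and 0.869. Among these 6 genes the CpG-rich sequences therefore include both an always open start and closed ones. The 3 genes of the chromosome's central cluster resemble each other: ZNF85 and ZNF93 were identical at 77.8% of aligned columns, ZNF85 and ZNF91 at 80.9%, and ZNF93 and ZNF91 at 83.1%, whereas every other pair of the 6 lay between 47.7% and 53.9%. Each of the 3 also holds the letters GATTGG on either strand, searched for here as an inverted CCAAT box, and the other 3 printed stretches lack these letters. The ZNF132 stretch does hold the letters CCAAT followed by G, which that search does not count.

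The libraries differed in the length of their peak lists more than the groups did. The lists held from 53610 to 127886 peaks, and no read counts were used here, so sequencing depth is unknown. Over the 434 regions, the mean Jaccard overlap of a library with the others (regions shared over regions called in either) was lowest for DMSO 24 h replicate 3, the longest list, at 0.650. Lgk974 48 h replicate 2 followed at 0.783, Lgk974 48 h replicate 3 at 0.786 and Lgk974 24 h replicate 3, the shortest list, at 0.801. The remaining 11 lay between 0.839 and 0.859. DMSO 24 h replicate 3 and the third Lgk974 replicate of each time are called the 3 libraries that stood apart below, since over all regions they had the 3 lowest overlaps, and results that rest on them are given without them too. Of markers of the cell type, 11 of 12 pancreatic and epithelial genes, among them KRT8, KRT19, EPCAM and GATA6, had a peak at an end or start in all 15 libraries. Of genes of other cells, 1 of 6 fibroblast markers (COL1A1), 3 of 6 immune markers (CD3E, LYZ and CD14) and 0 of 4 endothelial markers had one in all 15.

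Regions at the ends of zinc finger genes were mostly constant. Of the 217, 158 (72.8%) were called in all 15 libraries, 21 (9.68%) in 1 library and 38 in between. Among regions at the ends of all other protein-coding genes, 49.8% of 18627 were called in all 15, and among those of ZNF genes on other chromosomes 59.0% of 305. Without the 3 libraries that stood apart, 171 of the 217 (78.8%) were called in all 12 others. The open ends were the 5′ ends: 138 of 179 regions on the 5′ side were called in 15 libraries against 1 of 13 on the 3′ side, and 19 of 25 where the strand of the gene was not given. The median width was 1035 bp over all end regions and 1129 bp over those called in 15.

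**Figure D1:**
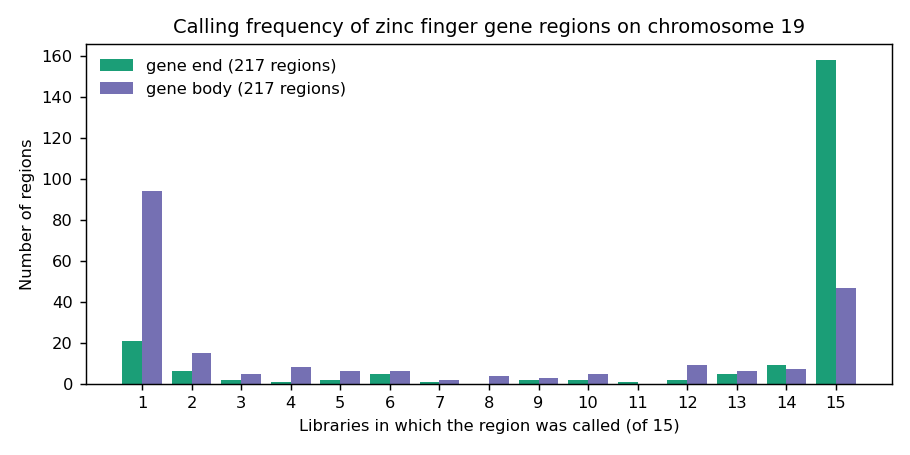
Number of libraries (of 15) in which each of the 434 regions was called, with the number of regions on the vertical axis and gene ends and gene bodies as separate bars. Gene ends pile up at 15 libraries (158 of 217), while gene bodies pile up at 1 library (94 of 217) with a smaller group at 15 (47 of 217).

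Regions in the gene bodies were mostly sporadic. Of these 217, 47 (21.7%) were called in 15 libraries and 94 (43.3%) in a single library, beside 13.2% and 40.3% of 99411 body regions of all other protein-coding genes. Body regions of the other genes of chromosome 19 had nearly the same constant share, 21.5% of 2571 in 15 libraries, and 29.1% in 1. The median width was 368 bp, 1124 bp for those called in 15 and 253.5 bp for those called in 1. Many of the constant body regions are internal starts: 30 of the 47 (63.8%) lay within 1 kb of a transcription start listed by RefSeq, against 3 of 76 called in 2 to 14 libraries and 5 of 94 called in 1. Most body regions seen once came from 1 library. Of the 94, 54 were called only in DMSO 24 h replicate 3 and 16 only in Lgk974 48 h replicate 2, and of the 21 end regions seen once, 15 came from DMSO 24 h replicate 3. Over all regions of the genome the same library held 50.7% of those seen once. ZNF536, a long gene outside the clusters at 488 kb, carried 36 of the body regions, 26 of them seen in 1 library, of which 22 in DMSO 24 h replicate 3, and 0 seen in 15.

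The significance of a peak, ranked within its own list by the deposited −log10 q, was high at the ends of these genes, as at those of other zinc finger genes. The median percentile of end regions ran from 71.5 to 88.3 over the libraries, with a middle value of 86.1, beside 71.3 to 84.4 and 76.7 for the ends of other protein-coding genes and 75.1 to 88.5 and 82.6 for those of ZNF genes on other chromosomes. Among end regions called in 15 libraries the middle values were closer, at 88.1, 84.4 and 87.4. Body regions had a middle value of 67.0 beside 46.9 for bodies of other genes. Among body regions called in 15 libraries these values were closer, at 88.0 and 79.6. The 5 widest regions called in 15 libraries were an end region of ZNF576 (2147 bp, which also lies within 1 kb of an end of another gene), a body region of ZNF600 (2113 bp), an end region of ZNF700 (2080 bp) and body regions of ZNF584 (1974 bp) and ZNF575 (1963 bp). The last 2 lay at listed internal starts. At ZNF700 the percentile ran from 77.8 in Lgk974 24 h replicate 3 to 96.0 in Lgk974 24 h replicate 1, and at ZNF600 from 68.9 in Lgk974 48 h replicate 3 to 87.3 in DMSO 24 h replicate 2.

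The number of end regions called did not separate the treatments. With DMSO at 24 h the 4 libraries called 185, 186, 201 and 177 of 217 (187 ± 10.0, SD, n = 4), and with Lgk974 at 24 h 184, 183, 166 and 186 (179.75 ± 9.25, n = 4). At 48 h they called 180, 183, 178 and 180 with DMSO (180.25 ± 2.06, n = 4) and 182, 189 and 164 with Lgk974 (178 ± 12.9, n = 3). The lowest values, 166 and 164, belong to both short lists, and the groups overlap at each time. As a share, the means were 86.3%, 82.8%, 83.1% and 82.2% in that order, beside 71.4%, 65.9%, 67.2% and 68.0% for the ends of all other protein-coding genes. The difference between Lgk974 and DMSO, averaged over both times, was -4.71 regions with a pooled SD of 9.44, and 3.46 regions without the 3 libraries that stood apart, so its sign rests on them. With lists of equal length (the 53610 most significant peaks of each library) it was -1.12 regions with a pooled SD of 3.56.

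Body regions varied more between replicates than between groups. The DMSO libraries called 93, 99, 130 and 74 at 24 h (99 ± 23.3, n = 4) and 83, 96, 78 and 82 at 48 h (84.8 ± 7.80, n = 4). The Lgk974 libraries called 90, 95, 60 and 87 at 24 h (83 ± 15.7, n = 4) and 95, 123 and 64 at 48 h (94 ± 29.5, n = 3). The treatment difference was -3.38 regions with a pooled SD of 20.7, and 13.1 regions without the 3 libraries. With lists of equal length it was 0.833 regions with a pooled SD of 2.26. On the 3′ side, where there are only 13 regions, 9, 9, 9 and 6 were called with DMSO and 7, 8, 1 and 5 with Lgk974 at 24 h, and 7, 9, 6 and 8 against 7, 8 and 3 at 48 h, again with overlap.

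**Figure D2:**
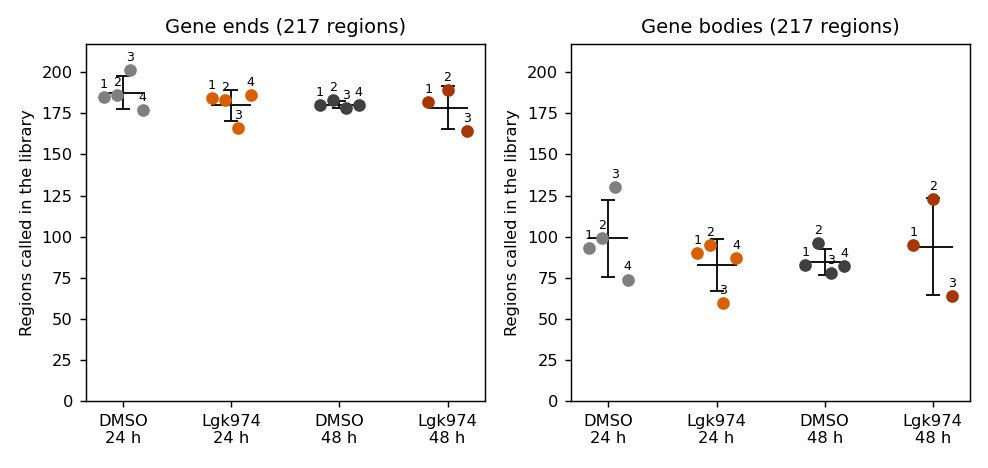
Zinc finger gene regions called in each library, at gene ends (left) and in gene bodies (right), by treatment and time. Points are libraries numbered by replicate, and the horizontal mark with bars is the mean ± SD (n = 4, or 3 for Lgk974 at 48 h). The groups overlap in both panels, and the third replicates of the Lgk974 groups are the lowest of their groups (166 and 164 at gene ends).

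The treatment was then compared region by region. Calling in Lgk974 and DMSO libraries was compared by a two-sided exact permutation test within time, run on all 60356 regions of the genome called in 3 to 12 libraries, which 66 of the 434 regions were (18 at ends, 48 in bodies). Regions called in fewer or more libraries were not tested. Of the 66, 6 had an unadjusted p under 0.05 over both times (9.09%), 3 called more often with Lgk974 and 3 less often, beside 6.03% of all regions tested (2.96% higher, 3.08% lower). After Benjamini-Hochberg adjustment over all 60356 regions, 0 of the 66 and 0 of all regions passed, and the smallest adjusted p among the 66 in this exact permutation test was 0.418. The differences below are therefore descriptions of which libraries had a peak, not changes that passed correction for the number of regions. Both end regions among the 6 were lower with Lgk974, and of the 4 body regions 3 were higher.

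The region with the clearest split lay in the body of ZNF85 (gene ID 7639), a KRAB zinc finger gene of the central cluster, at chr19:20934869-20935231, 11799 bp after the gene's start. It was called in 0 of 4 libraries with DMSO and 4 of 4 with Lgk974 at 24 h, and in 0 of 4 and 2 of 3 at 48 h, so the treatments did not overlap at 24 h. Over both times that is 0 of 8 against 6 of 7 (exact permutation p = 0.00204, adjusted p = 0.418). Where called, the peak ranked between the percentiles 30.2 and 57.4 of its list, that is, in the middle. The start of ZNF85 was called in 15 of 15, and 2 other body regions were called in 3 and 2 libraries. Without the 3 libraries that stood apart the split was 0 of 7 against 5 of 5 (exact p = 0.00333).

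A second region of the same cluster lay in the body of ZNF93 (gene ID 81931), the repressor of LINE-1 elements, at chr19:19911217-19911572, 10448.5 bp after its start. It was called in 0 of 4 DMSO libraries at each time, in 3 of 4 Lgk974 libraries at 24 h and in 2 of 3 at 48 h (exact p = 0.0102, adjusted p = 0.543). Its peaks ranked lower, at percentiles of 9.69, 18.1 and 35.5 in Lgk974 24 h replicates 1, 3 and 4, and of 36.6 and 52.7 in Lgk974 48 h replicates 1 and 2. With equally long lists it was called in 0 DMSO libraries and 1 Lgk974 library (exact p = 1). The upstream sequences of both genes are printed above and are alike. The body regions lie at 43.0% (ZNF85) and 30.2% (ZNF93) of the length of their genes. Sequence of the body regions themselves was not analysed here.

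The third region called more often with Lgk974 lay in ZNF792, at chr19:34962435-34962868, 1577.5 bp after its start. It was called in 1 of 4 libraries with DMSO and 3 of 4 with Lgk974 at 24 h, and in 0 of 4 and 2 of 3 at 48 h (exact p = 0.0388, adjusted p = 0.741). Other regions lie close by: the next one, 719.5 bp away, was called in 6 DMSO and 5 Lgk974 libraries, and the one after it, at the start, in 8 and 6. With equally long lists it too was called in 0 DMSO libraries and 1 Lgk974 library (exact p = 1).

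Of the regions called less often with Lgk974, the one at the 3′ end of ZNF507 ranked highest within its lists. It lay just past the gene's end at chr19:32387722-32388513, in a gene outside the clusters. All 8 DMSO libraries had it, with percentiles of 43.4, 48.2, 68.0 and 5.40 at 24 h and 75.9, 71.8, 58.0 and 56.8 at 48 h. At 24 h 0 of 4 Lgk974 libraries had it, and at 48 h 2 of 3, at percentiles of 19.1 and 17.3. Lists of different lengths rank a peak differently, so these percentiles describe each list and show no change between libraries. The test over both times gave 8 of 8 against 2 of 7 (exact p = 0.00612, adjusted p = 0.543). Leaving out the 3 libraries that stood apart, it gave 7 of 7 against 2 of 5 (exact p = 0.1).

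The 3′ end of ZNF565, a gene of cluster 6 of the family, had a weaker region at chr19:36182484-36183019. It was called in 3 of 4 libraries with DMSO and 2 of 4 with Lgk974 at 24 h, and in 4 of 4 and 0 of 3 at 48 h (exact p = 0.0224, adjusted p = 0.666). The groups did not overlap at 48 h, where the smallest p that 4 against 3 libraries can give, 0.0286, was reached. Its percentiles ran from 7.19 to 49.1 in the DMSO libraries that had it and were 1.41 and 5.86 in both Lgk974 libraries. With equally long lists the region was called in 1 DMSO library and 0 Lgk974 libraries (exact p = 1). The open start of ZNF565, inside the gene's outer range, was called in 15 of 15.

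In ZNF573 a body region at chr19:37763581-37763911, 15840 bp after the start, was called in 2 of 4 DMSO libraries at 24 h and 3 of 4 at 48 h, and in 0 of 7 with Lgk974 (exact p = 0.0306, adjusted p = 0.666). Its percentiles lay between 15.5 and 42.6, and with equally long lists it was called in 0 libraries of either treatment. The start of ZNF573 was called in 15 of 15. Without the 3 libraries that stood apart, the region differing here was called in 5 of 7 libraries with DMSO and 0 of 5 with Lgk974 (exact p = 0.08). The difference in calling share was then -0.71, beside -0.62 with all libraries.

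**Figure D3:**
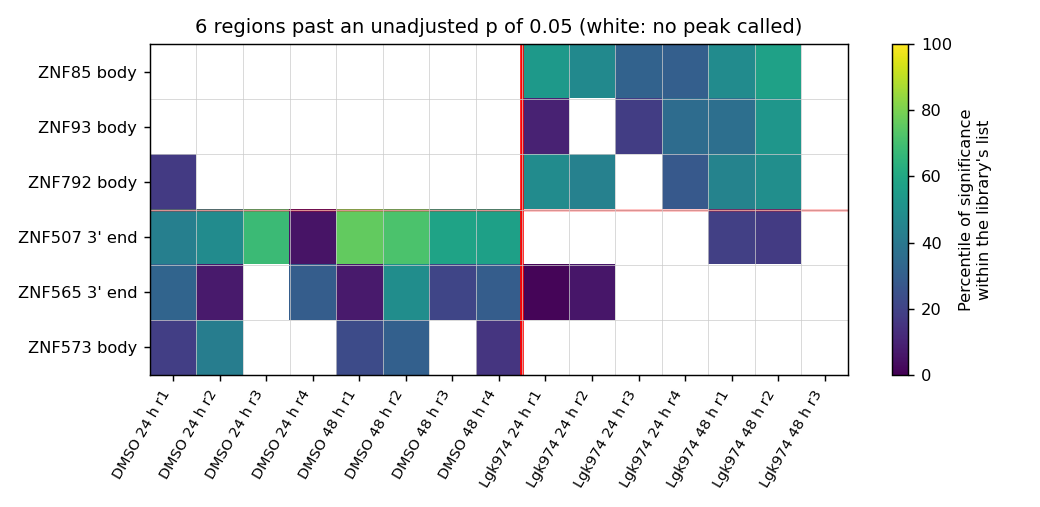
The 6 zinc finger gene regions with an unadjusted exact p under 0.05, in each of the 15 libraries (r, replicate). Colour gives the percentile of the peak's significance within its own list, and white means that no peak was called. The ZNF85 and ZNF93 rows are white in all 8 DMSO libraries, the ZNF573 row in all 7 Lgk974 libraries, and the ZNF507 row is filled in all 8 DMSO libraries.

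Within single times, full separation of the groups is the only outcome with a p under 0.05 (0.0286 at 24 h and at 48 h). At 24 h 3 regions reached it, those of ZNF85 (Lgk974 libraries only) and ZNF507 (DMSO libraries only) and a body region of ZNF114 at chr19:48271188-48271591 (DMSO libraries only), beside 0.439% of all regions (0.118% higher, 0.321% lower). The ZNF114 region was called in 1 of 4 libraries with DMSO and 1 of 3 with Lgk974 at 48 h. At 48 h 1 region reached it, at ZNF565 (DMSO libraries only), beside 1.73% of all regions (0.656% higher, 1.08% lower). No region was separated in opposite directions at the times. None passed adjustment. Between times, 1 region had a p under 0.05, a body region of ZNF426 at chr19:9531925-9532325, called in 4 of 4 libraries with DMSO and 3 of 4 with Lgk974 at 24 h but in 1 of 4 and 1 of 3 at 48 h (exact p = 0.0469, adjusted p = 1). The background for that comparison was 1.75% (1.25% higher, 0.504% lower). Without the 3 libraries that stood apart, 8 regions were fully separated at 48 h, 7 in Lgk974 libraries only and 1 in DMSO libraries only, and 7 of 49 tested had a p under 0.05 over both times, 6 higher and 1 lower, beside 7.997% of all regions. That share belongs to the test over both times. No share of all regions fully separated at 48 h is given here for this setting, so the 8 regions have no background beside them. In this setting only 2 Lgk974 libraries are left at 48 h. Their lists held 102869 and 122834 peaks, beside 84856 to 104877 in the DMSO libraries at 48 h.

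Taken per gene, a peak at either outer end was called in 3 to 12 libraries for 10 zinc finger genes. Of these, 1 had an unadjusted p under 0.05, which was ZNF565, with an end called in 8 of 8 libraries with DMSO and 2 of 7 with Lgk974 (exact p = 0.00612, adjusted p = 0.905). The background was 4.23% of 2129 genes tested (1.46% higher, 2.77% lower), and 0 genes passed adjustment. The ZNF565 calls are those of the 3′ region described above, in 7 DMSO and 2 Lgk974 libraries, plus 1 call at the outer 5′ end. That call came from DMSO 24 h replicate 3. Without the 3 libraries that stood apart the split was 7 of 7 against 2 of 5 (exact p = 0.0333). With equally long lists it was 1 DMSO library against 0 with Lgk974. ZNF556 (5 of 8 against 1 of 7, exact p = 0.112) and ZNF577 (5 of 8 against 1 of 7, exact p = 0.120) had the next smallest p, both with fewer calls with Lgk974.

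A gene was said to have an open start in a library if a peak lay within 1 kb of any start that RefSeq lists for it, which 219 of the 250 genes have. The start was open in 15 of 15 libraries for 162 genes (74.0%), in 1 to 14 for 31 and in 0 for 26 (11.9%). Among all other protein-coding genes 57.0% were open in 15 and 19.4% in 0, and among ZNF genes of other chromosomes 74.8% and 6.88%. Between 165 and 192 starts were open per library. The highest was DMSO 24 h replicate 3 and the lowest Lgk974 48 h replicate 3. At the 3′ ends 197 of 219 genes (90.0%) had no peak in any library, beside 72.1% of other genes, and 4 had one in all 15 (ZNF440, ZNF766, ZNF701 and ZNF324). A peak counted at a 3′ end can lie at a neighbouring gene. ZNF324 ends within 1 kb of the start of ZNF446, called in 15, and ZNF766 ends close to ZNF480, which had an end called in 15. Only 1 of 13 regions on the 3′ side was called in 15. Without the 3 libraries that stood apart, 173 starts (79.0%) were open in all 12 and 36 in 0.

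Some starts were seen almost only in 1 library. Of 17 genes whose start was called in 1 to 3 libraries, 16 were called in DMSO 24 h replicate 3. Among them are 7 genes that lie between ZNF582 and ZNF835 (ZNF582, ZNF583, ZNF667, ZNF470-DT, ZNF470, ZNF71 and ZNF835), all called in that library. The share for all genes with a start called in 1 to 3 libraries is not given here. Among 15592 other protein-coding genes this library also had the most open starts, 11762. The other DMSO libraries at 24 h had 10746, 10785 and 10334. The part that this library's long list plays in these calls was not tested.

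Most of the 6 listed retroelement-binding genes had open starts, as did most zinc finger genes of the chromosome. ZNF91 and ZNF93, ZNF611 and ZNF808 of cluster 8, described below, and ZNF274 were open in 15 of 15 libraries, in every group. That is 5 of 6 genes of this list (83.3%), beside 74.0% of all zinc finger genes of the chromosome. ZNF534, known for binding HERVH-type elements, was called in 0 of 15 at either end and has no region in its body. A second, narrow region 5′ of the main peak was called in 5 libraries at both ZNF91 and ZNF274 (exact p = 0.990 each). ZNF808, which binds MER11 elements and is needed for pancreas development, also had a body region near its 3′ end at chr19:52566379-52567029, called in 14 of 15, the exception being a DMSO library at 24 h. ZNF611 had one at chr19:52722347-52722877 called in 13. Of the 6 genes, 0 were tested for a treatment difference at their ends, because 5 were called in all libraries and 1 in none.

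The genes known for promoter methylation in carcinomas were mostly closed. Of 8 with a listed start, 1 (ZNF331) was open in 15, 4 in 1 to 3 libraries and 3 (ZNF132, ZNF671 and ZNF677) in 0. Of the 219 zinc finger genes of the chromosome with a listed start, 74.0% were open in 15 and 11.9% in 0. ZNF382 was called in 1 Lgk974 library at 48 h, ZNF582 in 1 DMSO library at 24 h, ZNF154 in 1 DMSO and 1 Lgk974 library at 24 h, and ZNF667 in 1 DMSO library at 24 h and 1 Lgk974 library at each time. The DMSO library was DMSO 24 h replicate 3 in each case. ZNF471 has no listed start, and a region at one of its ends was called in 1 DMSO library at 24 h. ZNF331 differed from the rest: its outer ends were called in 0 of 15, but its body held 7 regions, 5 of them called in 15, 3 of which lie at listed internal starts. Of the 9 genes, only ZNF667 was called in enough libraries to be tested (exact p = 0.459). DNA methylation was not measured.

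Of the 26 genes whose start was closed in all libraries, 10 lay in 4 runs of adjacent genes and 16 in none, where a gene without a listed start ended a run. The runs were ZNF439 and ZNF69, ZNF433 and ZNF878, ZNF208 and ZNF257, and ZNF880, ZNF528, ZNF534 and ZNF578. Some runs would be longer if genes without a listed start were counted by their outer ends. ZNF676, ZNF729 and ZNF98, between ZNF257 and the closed ZNF492, had no peak at either end in any library. The same holds for ZNF99, next to ZNF492, and ZNF610, next to ZNF880. The runs were picked out after the values were seen. Of the 26 genes, 19 had no region anywhere in the gene or within 1 kb of its ends.

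Grouped by position, 236 of the 250 genes fell into 10 clusters of at least 5 genes with gaps under 500 kb, and 14 lay outside. The share of listed starts open in 15 libraries was highest in cluster 7 (ZNF575 to ZNF180, 17 of 19, 89.5%) and lowest in cluster 9 (ZNF628 to ZNF835, 6 of 15, 40%). Cluster 9 splits along its length: from ZNF628 to ZNF444 the listed starts were open in 14 or 15 libraries except at ZNF580 (4 libraries), and from ZNF582 to ZNF835 in 1 to 3. Cluster 4, the pericentromeric one from ZNF101 to ZNF254, is the longest at 4462 kb with 37 genes, and 19 of 29 starts (65.5%) were open in 15. It had 1 body region of 23 called in 15 libraries, whereas cluster 8 (ZNF175 to ZNF331) had 16 of 33. The body regions of ZNF85 and ZNF93 described above lay in cluster 4. Its body regions numbered 7 on average per DMSO library and 8.5 per Lgk974 library at 24 h, with ranges of 5 to 9 and 6 to 10, and 7 and 9.33 at 48 h, with ranges of 6 to 8 and 5 to 12, so the groups overlapped.

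**Figure D4:**
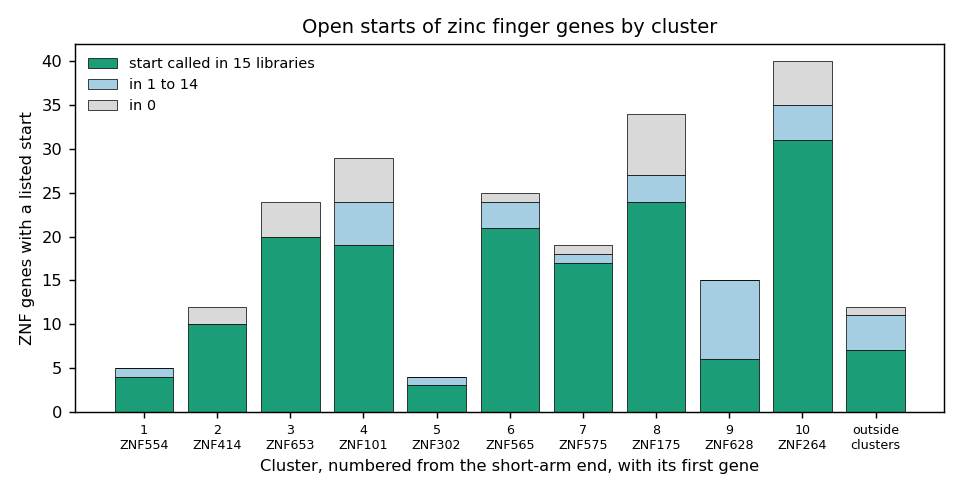
Zinc finger genes of chromosome 19 with a listed start, by cluster from the short-arm end (first gene named), stacked by whether the start was called in 15, in 1 to 14 or in 0 libraries. Cluster 9 has the smallest share of starts called in 15 (6 of 15), and cluster 7 the largest (17 of 19).

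The sequence at the starts was described from the 271 starts that RefSeq lists for the 219 genes, each with 250 bases before and 50 after. The median GC content was 60% and the median CpG ratio 0.764, beside 62.3% and 0.738 for 22131 starts of all protein-coding genes. Starts called in 15 libraries had a median ratio of 0.780 (193 starts) and those called in 0 one of 0.625 (34 starts). For all protein-coding starts the same medians were 0.842 (11636 starts) and 0.262 (4919 starts). Closed zinc finger starts thus held more CpG than closed starts in general. Starts of 1 gene share sequence, and so do duplicated genes, so these are descriptions without a test.

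**Figure D5:**
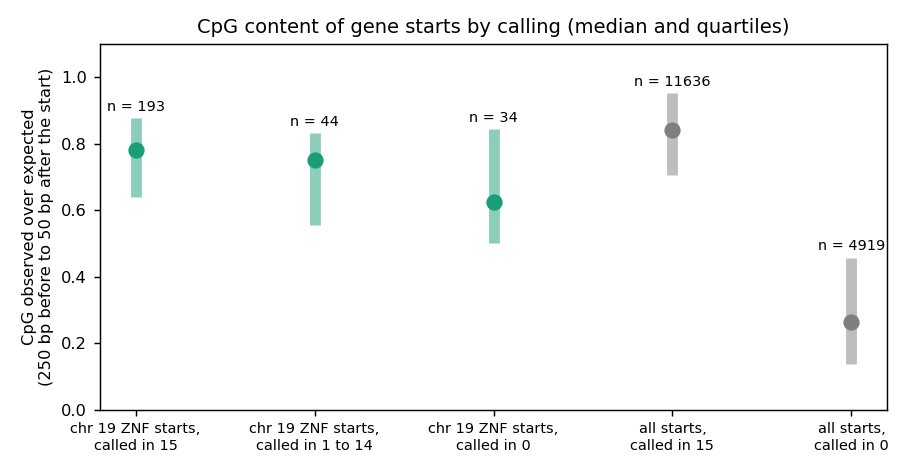
Ratio of observed to expected CpG in the 300 bases around gene starts, by how many libraries called the start, for zinc finger genes of chromosome 19 and for all protein-coding genes. Points are medians and bars run between the quartiles. Uncalled zinc finger starts have a median of 0.625, and uncalled starts of all genes one of 0.262.

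Short letter motifs were searched on both strands, and none of the motif strings contains another. The inverted CCAAT box GATTGG was in 30.3% of the 271 starts and 16.9% of all protein-coding starts, the ETS string CCGGAAGT in 17.7% and 5.34%, and the SP/KLF box GGGCGG in 64.9% and 56.3%. The cAMP response element TGACGTCA was in 3.69% and 2.26%, the NRF1 motif in 2.95% and 1.50% and the ZNF143 motif in 1.11% and 0.298%. The YY1 motif was in 1.48% and 1.69%. The TCF/LEF string CTTTGAT, read by the Wnt pathway's own factors, was in 1.48% of zinc finger starts and 1.99% of all starts. Among zinc finger starts, the ETS string was in 20.2% of those called in 15 libraries, 6.82% of those called in 1 to 14 and 17.6% of those called in 0 (6 of 34 starts), and the CCAAT box in 31.1%, 22.7% and 35.3%. For all protein-coding starts the ETS string was in 9.31% of those called in 15 and 0.691% of those called in 0.

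The genes of the corepressor machinery through which KRAB zinc finger proteins act were mostly open too. Of 24, including TRIM28, SETDB1, ATF7IP, the HP1 genes CBX1, CBX3 and CBX5, and the HUSH complex genes TASOR, MPHOSPH8 and PPHLN1, 20 (83.3%) had a peak at a start or end in 15 libraries, beside 57.3% of all protein-coding genes and 73.2% of the zinc finger genes. The other 4 were the remodeller CHD4 (14), the methyltransferases DNMT3B (14) and EHMT1 (14), and UHRF1 (13), which guides maintenance methylation. UHRF1 was called in 8 of 8 libraries with DMSO and 5 of 7 with Lgk974. The starts of CHD4, ZNF569, ZNF570, ZNF813 and ZNF836 had the same split. All of these starts, that of UHRF1 included, were called in 3 of 4 Lgk974 libraries at 24 h and 2 of 3 at 48 h. They were named after their values were seen, and no share of all starts with this split is given here. None of these starts was tested for a treatment difference, and the part that the short lists play was not tested. None of the 24 was tested at its outer ends, since each was called there in more than 12 libraries, or, for UHRF1, in 0.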

How the data were processed

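The data were 15 deposited narrowPeak lists. Each library has its own list, with no pooling of replicates. The submitters' processing notes name hg38, MACS2 as peak caller, Bowtie2 and Trimmomatic, and among further tools DiffBind, DESeq2, Picard and HOMER; their versions and settings, and any shift of reads for the transposase, are not given in the sources used. Each deposited peak carries the authors' score, a fold over background (a ratio) and −log10 p and −log10 q values. The −log10 q only ranked or filtered peaks within a list, and the score and fold gave no result. No read counts were used, and an uncalled region can still be open below the threshold of a list. A damaged chromosome name in 1 line was taken as chromosome 1, and 1138 of 1413185 peaks, on other contigs, were left out.

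Groups came from the sample labels. Calls were compared by two-sided exact permutation (2450 assignments over both times, 70 at 24 h, 35 at 48 h; smallest p 0.000408 over both times and 0.0286 within a time), with Benjamini-Hochberg adjustment over all 60356 regions called in 3 to 12 libraries; the code was tested on simulated data. Gene ranges and listed starts came from RefSeq tables of GRCh38.p14, which give no exons; 31 of the 250 genes have no listed start. Upstream sequences were aligned globally with Biopython 1.88; other steps used Python 3.11.15, numpy 2.4.6, pandas 2.3.3 and matplotlib 3.10.9. Members and lists were chosen with earlier results of these data known. Named genes were the retroelement and methylation lists, up to 10 regions or genes in each direction with an unadjusted p under 0.05, and the 5 widest regions called in 15 libraries; others were chosen after their values were seen, as was the use of all listed starts. Alternatives were equal list lengths, a −log10 q of at least 5, 50% cover, a 3 kb window, a replicate block and leaving out libraries. Protein features were not analysed here, and 1 marker gene is not reported here by name.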

Additional observations from a re-analysis of the deposited data

Results flagged for a closer look

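The number of members at gene ends called in Lgk974 24 h replicate 3 was 166 of 217, beside 183, 184 and 186 in the other 3 libraries of its group, a gap of 0.85 of the group's range and above Dixon's critical value for 4 samples. This library also has the shortest list (53610 peaks). On the 3′ side, DMSO 24 h replicate 4 called 6 of 13 regions where each of the other 3 called 9. With 3 equal counts the gap is the whole range whatever its size, so this flag follows from the ties alone. In all, 12 groups of 4 libraries were checked in this way, and chance flags about 1 in 20 where values are not tied.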

How the results depend on the processing

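The count of regions past an adjusted p of 0.05 was 0 under every setting run; the smallest adjusted p of a member was 0.0839, with equal list lengths (a body region of ZNF331, called in 0 of 8 libraries with DMSO and 6 of 7 with Lgk974). With equal list lengths, 0 regions in place of 3 were fully separated at 24 h, 3 in place of 1 at 48 h (2 in Lgk974 libraries only), 2 in place of 1 differed between times and 0 in place of 1 gene passed the unadjusted threshold; over both times 5 of 32 tested passed, 4 of them higher, beside 14.4% of all regions. With a −log10 q of at least 5 the counts were 1 at 24 h, 0 at 48 h and 2 genes. Over both times 8 of 62 tested then passed the unadjusted threshold, 4 higher and 4 lower, beside 6.20% of all regions. With 50% cover 7 of 95 passed over both times, 4 higher and 3 lower, beside 5.96%. With 50% cover the count at 48 h was 0, and the treatment difference at gene ends -15.7 regions; with a 3 kb window the count at 48 h was 2. Without the 3 libraries that stood apart, 8 regions were fully separated at 48 h and 0 differed between times. Outside the main setting, no share of all regions or genes is given here for the counts within a time, between times or per gene. Those counts therefore have no background beside them. The cause of these shifts was not tested. Replicate numbers were not taken as pairs, since not every same-numbered pair correlated: over 7 pairs the correlation of deviations ran from -0.0321 to 0.146, above 0.1 in 4 of 4 at 24 h and 1 of 3 at 48 h, and 4 of 7 Lgk974 libraries correlated best with the DMSO library of their own number. Some differently numbered libraries correlated too. At 24 h the value was 0.120 for DMSO replicate 1 with Lgk974 replicate 2 and 0.151 for DMSO 3 with Lgk974 4. It was -0.151 for DMSO 1 with Lgk974 4 and -0.157 for DMSO 3 with Lgk974 2. The main test takes no account of such grouping between replicates. With the replicate block, 1 region (ZNF85, exact p = 0.0312) of 66 and 0 genes passed, beside 0.562% of all regions; the exact p was 0.0625 for ZNF93 and ZNF507 and 0.125 for ZNF792, ZNF565 and ZNF573, and the smallest it can give is 0.0156. Leaving out each library in turn gave 3 to 5 regions over both times, beside 2.46% to 5.37% of all regions (3 without DMSO 24 h replicate 2, DMSO 48 h replicate 1, 2 or 4, or Lgk974 48 h replicate 1), 3 to 4 fully separated at 24 h, 1 to 8 at 48 h (8 without Lgk974 48 h replicate 3), 0 to 1 between times and 1 to 2 genes (2 without DMSO 24 h or Lgk974 24 h replicate 4). The difference in regions called ran from -7.38 to -1.12 at ends and from -10.6 to 4.12 in bodies. The ZNF85, ZNF93 and ZNF507 regions kept a p under 0.05 in all 15 of these, ZNF792 and ZNF565 in 3 and ZNF573 in 7. The difference in bodies turned positive without each of the 3 libraries that stood apart, without all 3 (13.1) and with equal list lengths (0.833), and so did that at ends without all 3 (3.46); the 1 region differing between times was a higher one, not a lower one, without DMSO 24 h replicate 2 or DMSO 48 h replicate 3; the 6 named regions kept their direction or had no difference. Within a time, libraries left out were followed by the counts of fully separated regions, which at 4 against 3 libraries have an exact p of 0.0286, and with fewer a p above 0.05; the block was not run within a time, where its smallest p is above 0.05. The 3 to 4 libraries per group limit every comparison.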
